A study of Mus musculus with 12 samples.

Results

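Expression of 40 genes of the contractile apparatus, the actin cytoskeleton and serum response factor (SRF) was followed in mouse embryonic fibroblasts with and without the coactivators CBP and p300. The genes were listed by name: actin isoforms, transgelins and calponins, myosin II chains and their kinase, tropomyosins, other contractile proteins, actin crosslinkers and adhesion plaque proteins, LIM domain proteins, and SRF with its coactivators. Of the 40 listed genes, 36 were measured among 17097 genes, and Tagln, Tagln2, Smtn and Actn4 were not analysed here.

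The cells were primary MEFs from e14.5 embryos of the C57Bl/6 x 129Sv (F1) background, used at passage 4. The 4 groups of 3 arrays were wild type in ethanol, wild type in 2',2'-dipyridyl (DP), CBP/p300 null (dKO) in ethanol and dKO in DP. Wild-type MEFs and MEFs homozygous for conditional CBP and p300 alleles were all given Cre adenovirus (multiplicity of infection 100) for 16 h in 3% O2, so Cre exposure was shared by the 4 groups. The cultures were then kept 48 h in 3% O2 and 24 h in normoxia before 3 h with 100 µM DP, an iron chelator, or ethanol. The replicates were separate MEF lines, numbered 3, 4 and 5 in wild type and 1, 5 and 6 in dKO, each with 1 ethanol and 1 DP array. Any uninfected cells that kept the alleles remained in the dKO cultures, and their share was not measured.

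SRF binds the CArG box, a short A/T-rich sequence found before many cytoskeletal genes. Myocardin-related factors, encoded by Mkl1 and Mkl2 (now Mrtfa and Mrtfb), bind unpolymerized actin in the cytoplasm and join SRF in the nucleus when actin polymerizes, and the resulting programme makes actin, myosin, tropomyosin and adhesion proteins. In fibroblasts this programme builds stress fibres, and at higher output it gives the contractile myofibroblast. CBP and p300 are paralogous acetyltransferases that many transcription factors, the SRF coactivators among them, recruit to chromatin.

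To show the promoter element by which this set of genes is best known, 120-base stretches before the transcription start of 8 members are given. They were read from RefSeq (GRCm38.p6) on the strand of the gene, 5′ to 3′, with perfect CArG boxes in capitals. Acta1 (chr8:123894776-123894895, minus strand), Cnn2 (chr10:79988480-79988599, plus strand) and Fhl2 (chr1:43163962-43164081, minus strand) were among the members with a perfect box that were lower in dKO. Myl9 (chr2:156775283-156775402, plus strand) and Vcl (chr14:20929151-20929270, plus strand) were also lower, and their boxes lay further upstream. Srf (chr17:46556163-46556282, minus strand) carried 2 perfect boxes in its own promoter. Acta2 (chr19:34255374-34255493, minus strand) had no perfect box in this window but 2 boxes with 1 mismatch each, which its capitals mark. The stretch of Myl9 also held a box with 1 mismatch nearer the start, left in small letters. Myl6 (chr10:128493010-128493129, minus strand) had a perfect box and is shown because it was not lower in dKO.
Acta1: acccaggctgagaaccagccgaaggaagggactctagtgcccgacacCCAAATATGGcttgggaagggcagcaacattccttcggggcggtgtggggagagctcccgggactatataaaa
Cnn2: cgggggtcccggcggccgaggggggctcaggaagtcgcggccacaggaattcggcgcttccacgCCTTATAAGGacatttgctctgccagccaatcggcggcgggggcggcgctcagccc
Fhl2: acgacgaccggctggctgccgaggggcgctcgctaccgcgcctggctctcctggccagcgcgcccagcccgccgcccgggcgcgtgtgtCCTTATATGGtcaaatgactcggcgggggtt
Myl9: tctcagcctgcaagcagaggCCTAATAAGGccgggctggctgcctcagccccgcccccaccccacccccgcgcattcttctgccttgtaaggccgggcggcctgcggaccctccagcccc
Vcl: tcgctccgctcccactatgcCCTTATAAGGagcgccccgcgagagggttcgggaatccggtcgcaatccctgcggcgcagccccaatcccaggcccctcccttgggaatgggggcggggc
Srf: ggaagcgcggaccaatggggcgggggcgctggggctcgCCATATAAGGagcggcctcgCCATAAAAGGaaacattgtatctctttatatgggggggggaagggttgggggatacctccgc
Acta2: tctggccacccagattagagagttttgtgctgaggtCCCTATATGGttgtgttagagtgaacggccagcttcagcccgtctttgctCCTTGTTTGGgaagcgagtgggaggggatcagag
Myl6: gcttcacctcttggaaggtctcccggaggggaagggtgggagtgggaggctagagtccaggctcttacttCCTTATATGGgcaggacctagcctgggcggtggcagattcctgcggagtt

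The CArG box was searched by name as a 10-base motif over the 250 bases before each start, and it reads alike on both strands. A promoter was matched for 32 of the 36 measured members, and 9 of these (28.1%) held a perfect box, namely Acta1, Actc1, Cnn2, Myl6, Myl9, Vcl, Fhl1, Fhl2 and Srf. The share was 1.51% of 13605 array genes with a promoter and 1.62% of 27025 RefSeq genes. With at most 1 mismatch in the A/T part of the box the counts were 12 of 32 members (37.5%) and 9.58% of the array genes. A match is a run of letters and not a measured binding site. Cnn1 and Mylk, which were among the members with the largest falls in dKO, had no match in this window.

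The values were log2 expression values from RMA, changes are differences of log2 values with their SE (n = 3 arrays per group), and calls rested on an adjusted p under 0.05 from limma (Benjamini-Hochberg over 17097 genes). For each array the 95th percentile of the control probe sets for artificial tag sequences was taken, between 3.28 and 3.54. A group mean was described as at the Tag level when it did not exceed the highest of these, 3.54. Array medians lay between 3.87 and 3.98. In ethanol, the arrays of line 5 in wild type and of line 1 in dKO correlated least with their groups, at 0.99 and 0.989, and results without them are given below. Crebbp, which encodes CBP, was 8.07 to 8.54 on wild-type and 7.02 to 7.69 on dKO arrays, a change of -0.85 ± 0.16 (adjusted p = 0.000992) in ethanol. Whether the Crebbp probe set covers deleted exons is unknown, so its level is no check of the deletion. Ep300, for p300, was not analysed here. Xist, expressed from the inactive X chromosome, was 10.28 to 10.75 in wild type and 3.94 to 5.32 in dKO, and the Y-linked Eif2s3y was 2.49 to 3.29 and 7.08 to 8.93. The sex of the lines therefore differed with genotype, and the effects of sex and of genotype cannot be told apart. The members Flna and Fhl1 are X-linked. In a bulk RNA sample, fewer cells of a type and less RNA per cell cannot be told apart.

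The first comparison asked how the contractile and actin genes differed between dKO and wild-type MEFs in ethanol. They were broadly lower in dKO. Of 36 measured members, 28 (77.8%) were lower, 1 was higher and 7 were not called, where 14.1% of all genes were called lower and 19.5% higher. The median change of the members was -0.94, against -0.01 for all genes. At least 2-fold lower were 17 members, compared with 5.16% of all genes called and at least 2-fold lower. The 3 dKO arrays lay below the 3 wild-type arrays without overlap for 30 members, a pattern that 18.8% of all genes had. Under DP 27 members (75.0%) were lower and 1 was higher, where 16.9% and 18.5% of all genes were called in these directions. Their median was -0.87, against -0.01, with 31 members not overlapping where 25.3% of all genes did not. In both treatments 27 members were called lower, where 11.9% of all genes were.

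**Figure D1:**
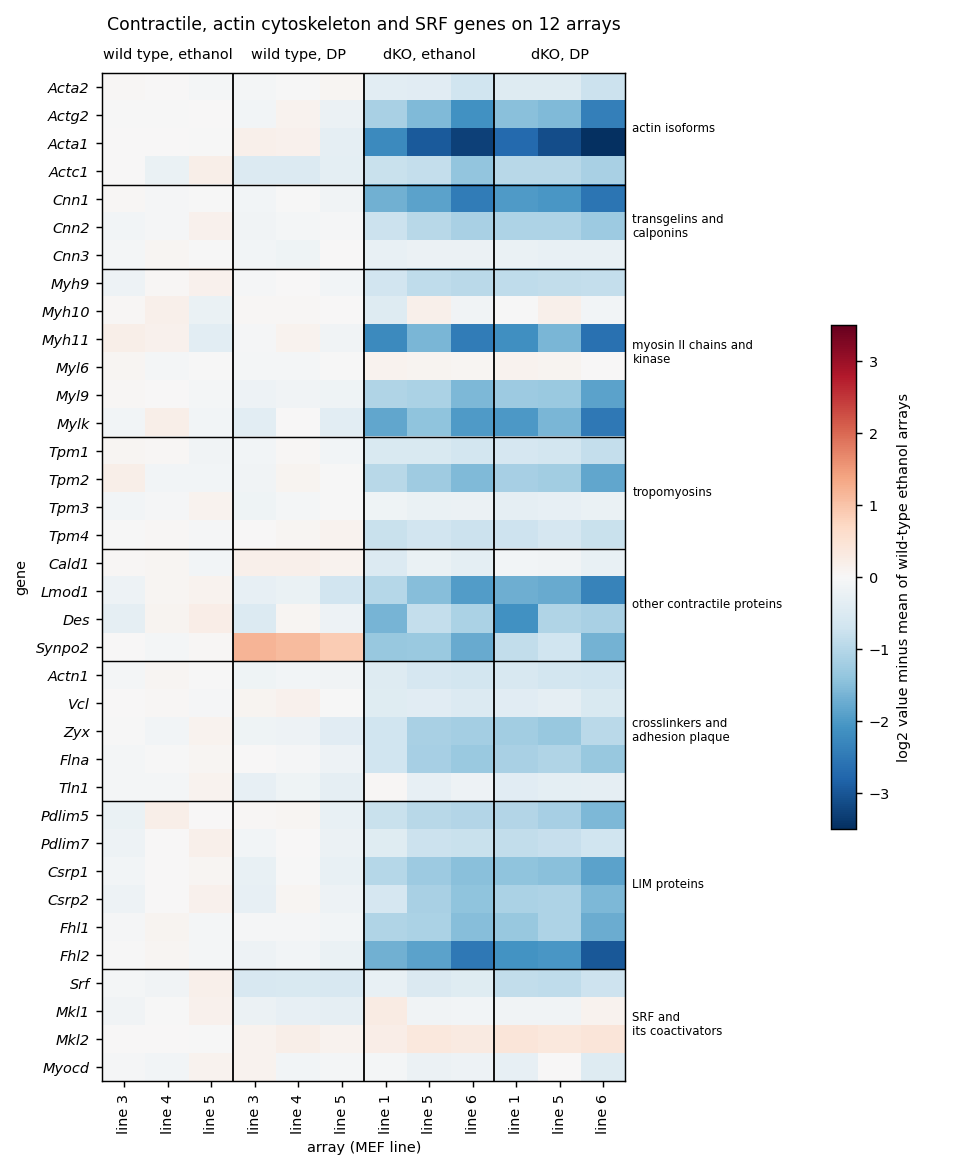
Heat map of the log2 value of each measured member (rows, grouped by role) on each of the 12 arrays (columns), minus the mean of the wild-type ethanol arrays; blue is lower and red is higher. The dKO columns are blue for most rows in both treatments, deepest for Acta1, and Synpo2 is red in wild-type DP.

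Among the actin isoforms, all 4 members were lower in dKO in both treatments, with a median change of -1.3 in ethanol. Acta1 encodes skeletal alpha-actin, which cultured fibroblasts can also express. On the ethanol arrays Acta1 was 11.63, 11.63 and 11.62 in wild type and 9.40, 8.69 and 8.35 in dKO. On the DP arrays it was 11.80, 11.77 and 11.30 in wild type and 8.91, 8.52 and 7.84 in dKO. Each dKO array was far below each wild-type array, and the wild-type ethanol lines were nearly equal. Acta1 had the largest change of the members, -2.81 ± 0.28 (adjusted p = 5.98e-06) in ethanol, 7.01-fold lower, and -3.20 ± 0.28 (adjusted p = 1.95e-06) under DP.

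Acta2, smooth-muscle alpha-actin and the usual marker of the myofibroblast, was 13.11, 13.08 and 13.00 in wild type and 12.69, 12.66 and 12.37 in dKO in ethanol. The DP arrays gave 12.99, 13.04 and 13.14 in wild type and 12.61, 12.62 and 12.32 in dKO. The groups did not overlap in either treatment, but the step between genotypes was small and a strong signal remained on every dKO array. Its change was -0.49 ± 0.11 (adjusted p = 0.00469) in ethanol and -0.54 ± 0.11 (adjusted p = 0.00231) under DP. Its probe set carries the array maker's suffix for probes that can match several transcripts, so signal of other actins in it was not tested. The probe sets of Cald1 and Srf carry the same suffix, and those of Cnn3 and Pdlim5 a related suffix for possible cross-matching. Other signal in these was not tested either.

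Actg2, smooth-muscle gamma-actin, was 11.11, 11.11 and 11.12 in wild type and 9.98, 9.57 and 8.99 in dKO in ethanol. The DP values were 11.02, 11.25 and 10.92 in wild type and 9.64, 9.57 and 8.71 in dKO. Wild-type lines agreed closely, whereas the dKO lines spread over about a log2 unit with line 6 lowest. The change was -1.60 ± 0.25 (adjusted p = 0.000267) in ethanol and -1.76 ± 0.25 (adjusted p = 0.000124) under DP. Actc1, cardiac alpha-actin, was 4.54, 4.30 and 4.73 in wild type and 3.74, 3.69 and 3.15 in dKO in ethanol. Its dKO means were at the Tag level in both treatments, so the dKO values are upper bounds and the measured change of -1.0 ± 0.15 (adjusted p = 0.000216) is less certain in size. The cytoplasmic actins, which are not among the 40 genes, had changes of -0.11 ± 0.08 (adjusted p = 0.327) for Actb and -0.22 ± 0.08 (adjusted p = 0.0605) for Actg1 in ethanol, and neither passed the test.

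Of the transgelins and calponins, 2 of 3 measured members were lower. Calponins bind actin filaments and restrain actomyosin ATPase activity. Cnn1, the smooth-muscle calponin, was 11.32, 11.23 and 11.27 in wild type and 9.60, 9.40 and 8.82 in dKO in ethanol. Under DP it was 11.17, 11.26 and 11.14 in wild type and 9.30, 9.24 and 8.73 in dKO. The spread within each group was small beside the gap between them. Cnn1 changed by -2.0 ± 0.19 (adjusted p = 3.88e-06) in ethanol and -2.10 ± 0.19 (adjusted p = 2.47e-06) under DP, the smallest adjusted p of any member in ethanol. Cnn2, a calponin of many cell types, was 11.54, 11.59 and 11.79 in wild type and 10.90, 10.66 and 10.51 in dKO in ethanol and changed by -0.95 ± 0.11 (adjusted p = 2.7e-05), with 11.53, 11.58 and 11.60 in wild type and 10.56, 10.55 and 10.37 in dKO and -1.08 ± 0.11 (adjusted p = 9.03e-06) under DP. Every dKO array was below every wild-type array. Cnn3, the acidic calponin, was 12.07, 12.19 and 12.12 in wild type and 11.88, 11.93 and 11.92 in dKO in ethanol. Its groups also did not overlap, but the change of -0.21 ± 0.08 (95% confidence interval -0.39 to -0.04, adjusted p = 0.063) missed the threshold. The 3 calponins thus spanned changes from -2.0 to -0.21 in ethanol.

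Of the myosin II genes and their kinase, 4 of 6 were lower. Myh11 encodes smooth-muscle myosin heavy chain, the most restricted marker of differentiated smooth muscle in the list. It was 8.55, 8.49 and 7.98 in wild type and 6.12, 6.74 and 5.89 in dKO in ethanol. Under DP it was 8.30, 8.46 and 8.23 in wild type and 6.19, 6.75 and 5.73 in dKO. The genotypes were separated by more than a log2 unit, and among dKO lines it was line 5 that was highest in both treatments. The change was -2.09 ± 0.26 (adjusted p = 3.94e-05) and -2.11 ± 0.26 (adjusted p = 3.48e-05). The non-muscle heavy chains differed from each other. Myh9, the chain of non-muscle myosin IIA, was 11.00, 11.20 and 11.31 in wild type and 10.50, 10.27 and 10.24 in dKO in ethanol and changed by -0.83 ± 0.10 (adjusted p = 4.04e-05). The DP values were 11.14, 11.19 and 11.08 in wild type and 10.29, 10.32 and 10.34 in dKO, with a change of -0.82 ± 0.10 (adjusted p = 4.28e-05). Myh10, the chain of non-muscle myosin IIB, was 11.02, 11.17 and 10.75 in wild type and 10.52, 11.15 and 10.86 in dKO in ethanol. Its groups overlapped, and its change was -0.14 ± 0.15 (95% confidence interval -0.46 to 0.19, adjusted p = 0.546).

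Among the light chains and their kinase, Mylk, which encodes the kinase that activates the regulatory light chain, was 9.70, 10.00 and 9.69 in wild type and 7.99, 8.38 and 7.82 in dKO in ethanol. Under DP it was 9.42, 9.80 and 9.44 in wild type and 7.78, 8.19 and 7.29 in dKO. The dKO arrays were all more than a log2 unit below the wild-type arrays. Mylk changed by -1.73 ± 0.21 (adjusted p = 3.36e-05) and -1.80 ± 0.21 (adjusted p = 2.33e-05). Myl9, a regulatory light chain and substrate of that kinase, was 12.44, 12.40 and 12.33 in wild type and 11.33, 11.28 and 10.83 in dKO in ethanol and 12.21, 12.27 and 12.24 in wild type and 11.12, 11.09 and 10.52 in dKO under DP. It was lower in dKO without overlap, by -1.24 ± 0.16 (adjusted p = 5.93e-05) and -1.33 ± 0.16 (adjusted p = 3.26e-05). Myl6, the essential light chain, went the other way in level, at 12.50, 12.35 and 12.41 in wild type and 12.55, 12.52 and 12.50 in dKO in ethanol. Its dKO arrays were not below the wild-type arrays, and the change of 0.10 ± 0.08 (95% confidence interval -0.07 to 0.28, adjusted p = 0.378) did not pass. A dimmer probe set of Myl6 was called higher in ethanol, at 0.46 ± 0.13 (adjusted p = 0.0173), and under DP, at 0.77 ± 0.13 (adjusted p = 0.000593). With the mean of its probe sets Myl6 was called higher in ethanol (0.25, adjusted p = 0.027) and under DP (0.35, adjusted p = 0.00402).

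**Figure D2:**
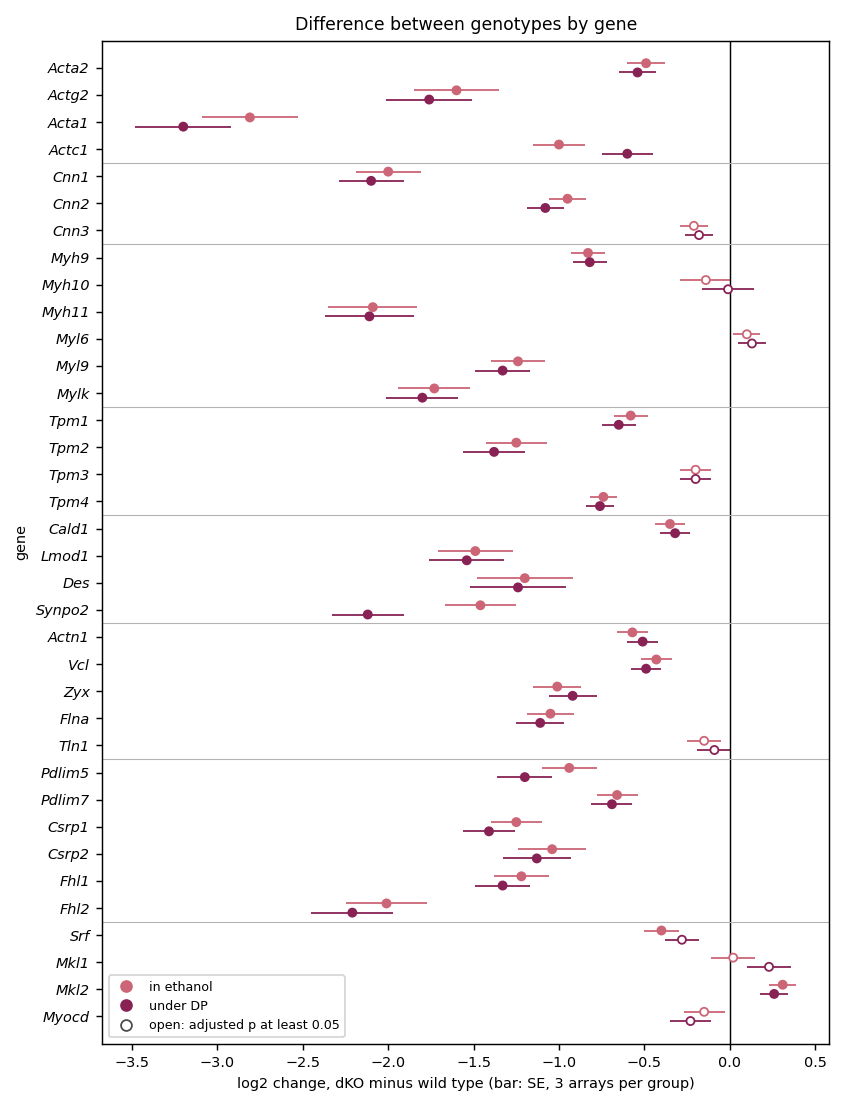
Change between dKO and wild type (x axis, log2, with SE, 3 arrays per group) for each measured member (y axis, by role) in ethanol and under DP; open points were not called. Acta1 is furthest to the left at -2.81 and -3.20, Mkl2 is the filled point to the right of 0, and the ethanol and DP points of a gene lie near each other.

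Tropomyosins wind along actin filaments and set which myosins and crosslinkers can bind, and 3 of 4 were lower. Tpm2 was 12.23, 11.93 and 11.94 in wild type and 11.05, 10.80 and 10.49 in dKO in ethanol and 11.91, 12.13 and 12.01 in wild type and 10.88, 10.82 and 10.22 in dKO under DP. It had the largest change of the tropomyosins, -1.25 ± 0.18 (adjusted p = 0.000136) in ethanol and -1.38 ± 0.18 (adjusted p = 5.99e-05) under DP, with the genotypes apart in both. Tpm1 was 12.30, 12.27 and 12.10 in wild type and 11.68, 11.69 and 11.57 in dKO in ethanol and 12.14, 12.26 and 12.13 in wild type and 11.64, 11.57 and 11.38 in dKO under DP. Its smaller step held in each line, at -0.58 ± 0.10 (adjusted p = 0.000504) and -0.65 ± 0.10 (adjusted p = 0.000204). Tpm4 was 12.11, 12.16 and 12.07 in wild type and 11.34, 11.43 and 11.36 in dKO in ethanol and 12.13, 12.17 and 12.23 in wild type and 11.40, 11.52 and 11.33 in dKO under DP. Here the dKO lines differed little among themselves, and the change was -0.74 ± 0.08 (adjusted p = 2.08e-05) and -0.76 ± 0.08 (adjusted p = 1.58e-05). Tpm3 was 11.44, 11.49 and 11.67 in wild type and 11.38, 11.30 and 11.33 in dKO in ethanol, where the groups came close without overlap. Its change of -0.20 ± 0.09 (95% confidence interval -0.39 to -0.01, adjusted p = 0.106) missed the threshold, whereas a dimmer probe set for the same gene was called lower at -0.46 ± 0.14 (adjusted p = 0.022).

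All 4 measured members among the other contractile proteins were lower. Lmod1, leiomodin of smooth muscle, which nucleates actin filaments, was 7.61, 7.85 and 7.90 in wild type and 6.78, 6.29 and 5.82 in dKO in ethanol and 7.49, 7.55 and 7.13 in wild type and 6.07, 6.02 and 5.46 in dKO under DP. Line 6 was the lowest dKO line in both treatments, and the change was -1.49 ± 0.22 (adjusted p = 0.000194) and -1.54 ± 0.22 (adjusted p = 0.000145). Des encodes desmin, the intermediate filament of muscle. It was 8.07, 8.48 and 8.61 in wild type and 6.75, 7.54 and 7.29 in dKO in ethanol and 7.91, 8.45 and 8.22 in wild type and 6.27, 7.34 and 7.25 in dKO under DP. For Des it was dKO line 1 that was lowest, and the wild-type lines also spread. Its change was -1.20 ± 0.28 (adjusted p = 0.00444) and -1.24 ± 0.28 (adjusted p = 0.00349), and without the 2 deviating ethanol arrays the ethanol change was -0.86 (adjusted p = 0.0519). Synpo2 encodes myopodin, an actin-bundling protein of the Z-disc. It was 6.02, 5.92 and 6.04 in wild type and 4.68, 4.70 and 4.22 in dKO in ethanol and changed by -1.46 ± 0.21 (adjusted p = 0.000137). Under DP, where it was 7.18, 7.09 and 6.88 in wild type and 5.13, 5.30 and 4.34 in dKO, the gap was wider at -2.12 ± 0.21 (adjusted p = 5.97e-06). The dimmer further probe sets of Synpo2 were called lower under DP. In ethanol they were not called, at -0.21 ± 0.20 (adjusted p = 0.498) and -0.15 ± 0.12 (adjusted p = 0.392). Cald1, caldesmon, which inhibits actomyosin, was 12.41, 12.44 and 12.27 in wild type and 11.90, 12.15 and 12.02 in dKO in ethanol and 12.55, 12.55 and 12.49 in wild type and 12.27, 12.25 and 12.12 in dKO under DP. The genotypes did not overlap but differed little, by -0.35 ± 0.09 (adjusted p = 0.0112) and -0.32 ± 0.09 (adjusted p = 0.0186). Under DP this call was lost without wild-type line 3 (adjusted p = 0.0576), wild-type line 4 (0.0588) or dKO line 6 (0.0764). Of the 4 further probe sets of Cald1, 2 were called lower in ethanol, by larger amounts (-0.92 ± 0.16 and -0.84 ± 0.16), and 2 were not called.

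Proteins that crosslink actin or tie it to adhesions were lower in 4 of 5 cases. Flna, filamin A, was 11.10, 11.16 and 11.23 in wild type and 10.47, 9.99 and 9.87 in dKO in ethanol and 11.17, 11.13 and 10.98 in wild type and 10.02, 10.10 and 9.83 in dKO under DP. The dKO lines lay about a log2 unit lower, and the change was -1.05 ± 0.14 (adjusted p = 7.17e-05) and -1.11 ± 0.14 (adjusted p = 4.52e-05). Zyx, zyxin, which recruits repair factors to strained stress fibres, was 9.93, 9.84 and 10.07 in wild type and 9.26, 8.80 and 8.77 in dKO in ethanol and 9.79, 9.77 and 9.56 in wild type and 8.73, 8.62 and 8.99 in dKO under DP. It was lower by a like amount, -1.01 ± 0.14 (adjusted p = 0.000119) and -0.92 ± 0.14 (adjusted p = 0.000232). Actn1, the crosslinker alpha-actinin, was 11.23, 11.36 and 11.29 in wild type and 10.83, 10.70 and 10.65 in dKO in ethanol and 11.14, 11.19 and 11.18 in wild type and 10.72, 10.65 and 10.60 in dKO under DP. The step was smaller but each group was tight, giving -0.57 ± 0.09 (adjusted p = 0.000184) and -0.51 ± 0.09 (adjusted p = 0.000402). Vcl, vinculin, which links talin to actin, was 11.62, 11.66 and 11.57 in wild type and 11.19, 11.22 and 11.15 in dKO in ethanol and 11.70, 11.78 and 11.60 in wild type and 11.22, 11.31 and 11.07 in dKO under DP. It had the smallest called change of this role, -0.43 ± 0.09 (adjusted p = 0.0023) and -0.49 ± 0.09 (adjusted p = 0.000862). Tln1, talin, which activates integrins, was 9.71, 9.71 and 9.89 in wild type and 9.80, 9.47 and 9.60 in dKO in ethanol. Its groups overlapped, and the change of -0.15 ± 0.10 (95% confidence interval -0.38 to 0.07, adjusted p = 0.308) was not called.

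All 6 LIM domain members were lower in both treatments. LIM proteins are scaffolds that decorate stress fibres, Z-discs and adhesions. Fhl2, which also acts as a coregulator in the nucleus, was 10.02, 10.12 and 9.98 in wild type and 8.37, 8.17 and 7.55 in dKO in ethanol. The DP arrays gave 9.86, 9.94 and 9.82 in wild type and 7.94, 8.01 and 7.06 in dKO. Every dKO array was more than a log2 unit below every wild-type array, and the change was -2.01 ± 0.24 (adjusted p = 2.58e-05) and -2.21 ± 0.24 (adjusted p = 1.16e-05). Fhl1, its X-linked relative, was 11.51, 11.66 and 11.49 in wild type and 10.50, 10.45 and 10.05 in dKO in ethanol and 11.52, 11.51 and 11.47 in wild type and 10.23, 10.47 and 9.82 in dKO under DP. It changed by -1.22 ± 0.16 (adjusted p = 5.5e-05) and -1.33 ± 0.16 (adjusted p = 2.62e-05), again without overlap.

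The cysteine-rich protein Csrp1 was 11.02, 11.13 and 11.19 in wild type and 10.12, 9.83 and 9.65 in dKO in ethanol and 10.86, 11.09 and 10.86 in wild type and 9.71, 9.65 and 9.24 in dKO under DP. It was lower by -1.25 ± 0.15 (adjusted p = 2.37e-05) and -1.41 ± 0.15 (adjusted p = 8.68e-06). Csrp2, its smooth-muscle relative, was 10.32, 10.51 and 10.63 in wild type and 9.91, 9.34 and 9.09 in dKO in ethanol and 10.19, 10.56 and 10.32 in wild type and 9.38, 9.40 and 8.91 in dKO under DP. In ethanol its dKO lines spread more than those of Csrp1, with a change of -1.04 ± 0.20 (adjusted p = 0.00108), and the change under DP was -1.13 ± 0.20 (adjusted p = 0.000591). The PDZ and LIM protein Pdlim5 was 8.85, 9.29 and 9.09 in wild type and 8.30, 8.10 and 8.04 in dKO in ethanol and 9.12, 9.15 and 8.81 in wild type and 8.05, 7.92 and 7.51 in dKO under DP. It changed by -0.94 ± 0.16 (adjusted p = 0.000471) and -1.20 ± 0.16 (adjusted p = 6.19e-05), with no overlap of the genotypes. Pdlim7, a relative that binds tropomyosin, was 9.89, 10.09 and 10.26 in wild type and 9.66, 9.32 and 9.30 in dKO in ethanol and 9.98, 10.09 and 9.88 in wild type and 9.23, 9.26 and 9.39 in dKO under DP. It had the smallest change of the LIM members, -0.66 ± 0.12 (adjusted p = 0.00103) and -0.69 ± 0.12 (adjusted p = 0.000704).

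Of SRF and its coactivators, 1 of 4 was lower and 1 higher in ethanol. On the ethanol arrays Srf was 7.71, 7.65 and 7.96 in wild type and 7.51, 7.26 and 7.35 in dKO. On the DP arrays it was 7.22, 7.25 and 7.20 in wild type and 6.90, 6.88 and 7.04 in dKO. The dKO values were lower in both treatments without overlap, by little. Its change was -0.40 ± 0.10 (adjusted p = 0.00918) in ethanol and -0.28 ± 0.10 (adjusted p = 0.051) under DP, where it missed the threshold. The test of whether these differences were unequal gave 0.12 ± 0.15 (adjusted p = 1.0), so Srf was not shown to differ more in ethanol than under DP. The ethanol call was lost when only the arrays compared were fitted (adjusted p = 0.0545), while under DP Srf was called lower in 7 of 22 other settings (adjusted p = 0.00172 to 0.0369), among them the fit of only the arrays compared (adjusted p = 0.0179) and those without the ethanol array of wild-type line 5 (0.0277) or of dKO line 1 (0.0369).

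Mkl1 was 8.12, 8.23 and 8.41 in wild type and 8.53, 8.12 and 8.15 in dKO in ethanol and 8.04, 7.96 and 7.93 in wild type and 8.12, 8.12 and 8.39 in dKO under DP. Its ethanol groups overlapped, and its change was 0.02 ± 0.13 (95% confidence interval -0.26 to 0.29, adjusted p = 0.945) in ethanol and 0.23 ± 0.13 (95% confidence interval -0.04 to 0.51, adjusted p = 0.186) under DP. Mkl2, in contrast, was 8.74, 8.72 and 8.70 in wild type and 8.96, 9.09 and 9.04 in dKO in ethanol and 8.83, 8.92 and 8.84 in wild type and 9.14, 9.09 and 9.14 in dKO under DP. It was the 1 member called higher in dKO by the probe set analysed. The changes were 0.31 ± 0.08 (adjusted p = 0.00818) and 0.26 ± 0.08 (adjusted p = 0.0213), with tight groups that did not overlap. The call depended on scaling and on the probe set: with cyclic loess the ethanol change was 0.16 (adjusted p = 0.147), and with the mean of its probe sets 0.01 (adjusted p = 0.943). Under DP it was lost without wild-type line 3 (adjusted p = 0.0703), wild-type line 5 (0.0637), dKO line 1 (0.059) or dKO line 6 (0.0636). Myocd, which encodes the muscle-restricted coactivator myocardin, was 3.61, 3.57 and 3.78 in wild type and 3.58, 3.45 and 3.47 in dKO in ethanol. These values were at or close to the Tag level, and its change was -0.15 ± 0.12 (95% confidence interval -0.42 to 0.12, adjusted p = 0.4). It was called lower under DP without dKO line 5 (-0.36, adjusted p = 0.0347).

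**Figure D3:**
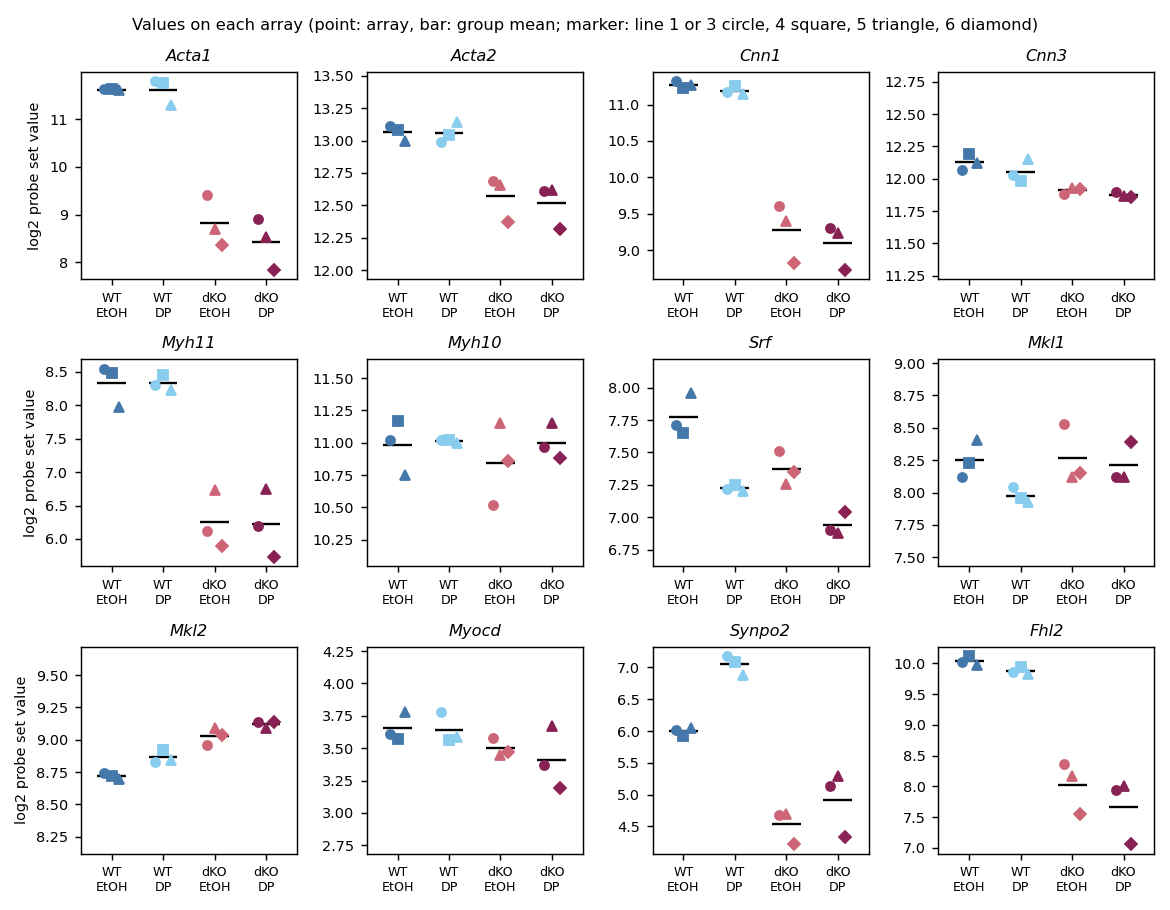
Log2 values on each array (points, marker by MEF line) with group means (bars) for 12 members in the 4 groups, each panel on its own y axis. Acta1, Cnn1, Myh11 and Fhl2 drop from wild type to dKO, Acta2 drops by less, Myh10 and Mkl1 overlap between genotypes in ethanol, Srf is lower under DP, and Synpo2 is highest in wild-type DP.

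The dKO lines differed among themselves in a common direction. Over the 27 members lower in both treatments, the median difference from the wild-type ethanol mean was -0.78, -1.11 and -1.38 in dKO lines 1, 5 and 6 in ethanol. Under DP it was -1.14, -1.09 and -1.57. Line 6 was the lowest dKO line in both treatments for 21 of these 27 members (77.8%), compared with 762 of 2036 (37.4%) of all genes that were lower in both treatments. Crebbp was lowest in line 1 in ethanol, at 7.02, 7.68 and 7.54 in lines 1, 5 and 6. Under DP it was lowest in line 6, at 7.69, 7.62 and 7.51. The same median lay between -0.15 and 0.02 on the wild-type arrays.

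Of the 74 probe sets that stood for members, 38 were further probe sets beside the 36 analysed. In ethanol 20 of these 38 were lower and 1 was higher, and under DP 21 and 1. Acta2 and Csrp1 were lower by their further probe sets too, at -0.98 ± 0.16 and -1.09 ± 0.10 in ethanol. Actn1 was lower by each of its own, at -1.15 ± 0.14 and -0.44 ± 0.15. The further Acta2 probe set was dim, with a mean of 3.88, and was not called under DP (adjusted p = 0.0723). That of Myh11 was lower by less than the probe set analysed, at -0.43 ± 0.14 in ethanol. Among those not called in ethanol were that of Pdlim7 (-0.33 ± 0.14) and a dim probe set of Tpm2 (0.20 ± 0.18). The further probe set of Srf gave -0.34 ± 0.15 in ethanol and was not called (adjusted p = 0.103). Without the 2 deviating ethanol arrays, 27 members were lower in ethanol and 29 under DP.

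The next comparison asked whether 3 h of DP changed these genes. In wild-type cells 1 member rose and 1 fell of 36 (2.78% each), where 3.05% of all genes rose and 1.67% fell, shares near those of the members. The median change was -0.07, against -0.03 over all genes. Synpo2 rose in each wild-type line, by 1.16, 1.17 and 0.84 in lines 3, 4 and 5, and the groups did not overlap. Its change was 1.06 ± 0.21 (adjusted p = 0.0102), and the adjusted p was 0.0502 without the DP array of wild-type line 3. A dim further probe set of Synpo2 also rose, by 0.87 ± 0.20 (adjusted p = 0.0285), and the other was not called, at 0.28 ± 0.12 (adjusted p = 0.3). Srf fell in each wild-type line, by 0.49, 0.41 and 0.76 in lines 3, 4 and 5, again without overlap. The change was -0.55 ± 0.10 (adjusted p = 0.00706), and the further Srf probe set fell by 0.64 ± 0.15 (adjusted p = 0.0267). A dim further probe set of Acta2, with a mean of 3.88, fell by 0.79 ± 0.16 (adjusted p = 0.0159), whereas the Acta2 probe set analysed was not called. Of the structural genes lower in dKO, Acta1 had a DP change in wild type with a 95% confidence interval from -0.60 to 0.60 (adjusted p = 0.999), Cnn1 one of -0.08 ± 0.19 (95% confidence interval -0.49 to 0.32, adjusted p = 0.89) and Myh11 one of -0.01 ± 0.26 (95% confidence interval -0.57 to 0.55, adjusted p = 0.992).

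In dKO cells 0 of 36 members were called by limma after DP, where 1.5% of all genes were called. An unadjusted p under 0.05 was found for 2 members, and for 2409 of all 17097 genes. The median was -0.13, against -0.05, but -0.02 without the ethanol array of dKO line 1 and 0.05 with array weights. Srf had DP changes of -0.61, -0.38 and -0.31 in dKO lines 1, 5 and 6. The change of -0.43 ± 0.10 (adjusted p = 0.0673) missed the threshold, though its groups did not overlap. With array weights, where 8.64% of all genes were called, Srf passed (adjusted p = 0.00356). It also passed without the wild-type ethanol array of line 5 (adjusted p = 0.0334) and without the dimmest 40% of genes (adjusted p = 0.0485). Synpo2 was higher by 0.45, 0.60 and 0.12 in the same lines, with a change of 0.39 ± 0.21 (adjusted p = 0.412) and overlapping groups. With array weights its change was 0.69 and passed (adjusted p = 0.0281). It was 0.68 without the DP array of dKO line 6, 0.20 without that of line 5 and 0.24 without the ethanol array of line 6, none of them called.

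The DP effect in dKO minus that in wild type was called for 0 of 36 members by limma, where 0.562% of all genes were called. An unadjusted p under 0.05 was found for 1 member, and for 1012 of all 17097 genes. The members' values lay between -0.66 and 0.40, with a median of -0.05 against -0.02. The lowest was that of Synpo2, at -0.66 ± 0.30 (adjusted p = 0.81) and an unadjusted p of 0.0451. A larger response of Synpo2 in wild type was therefore not shown by this test, with a 95% confidence interval from -1.31 to -0.02.

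Genes beyond the 40 that belong to the same pathways were taken from 5 further lists. Early growth genes are driven by SRF with ternary complex factors rather than with the myocardin-related factors. Their list also held Elk3 and Elk4, which encode such ternary complex factors. Of its 10 measured genes, 4 were higher and 2 lower in dKO in ethanol, where 19.5% of all genes were higher and 14.1% lower. Fos, a growth-response transcription factor gene, was higher by 3.09 ± 0.20 (adjusted p = 1.96e-07), Egr1 by 1.17 ± 0.13 (adjusted p = 2.2e-05) and Junb by 0.67 ± 0.13 (adjusted p = 0.00117), whereas Egr2 changed by -0.88 ± 0.17 (adjusted p = 0.0013). On the arrays Fos was 6.01, 6.14 and 6.28 in wild-type ethanol and 9.47, 8.82 and 9.40 in dKO ethanol. The contractile members and these 3 early genes thus moved in opposite directions. Under DP in wild-type cells Fos rose by 1.97 ± 0.20 (adjusted p = 3.41e-05), Junb by 0.96 ± 0.13 (adjusted p = 0.000464) and Egr2 by 0.89 ± 0.17 (adjusted p = 0.00772), and Ier2 fell by 0.58 ± 0.13 (adjusted p = 0.0184).

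A list of the YAP and TEAD factor genes Yap1, Wwtr1 and Tead1 with targets and regulators of these factors was 5 higher (55.6%) and 1 lower (11.1%) of 9 in ethanol. Ankrd1, a mechanically induced ankyrin-repeat gene, was the 1 lower gene at -1.47 ± 0.22 (adjusted p = 0.000165). Lats2, a kinase gene that restrains YAP, changed by 1.18 ± 0.11 (adjusted p = 5.18e-06), Ccn1, a secreted matricellular protein gene, by 1.02 ± 0.08 (adjusted p = 1.33e-06), and Ajuba, a LIM protein gene, by 0.92 ± 0.10 (adjusted p = 1.79e-05).

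Of 22 genes of actin assembly and severing, 2 were higher and 10 lower. Ezr, which links actin to the membrane, was higher by 2.30 ± 0.11 (adjusted p = 2.98e-08), while Gsn, the severing protein gelsolin, changed by -1.20 ± 0.13 (adjusted p = 1.1e-05) and Vasp, which elongates filaments, by -0.97 ± 0.12 (adjusted p = 3.16e-05). Enah, a relative of Vasp, changed by -0.86 ± 0.15 (adjusted p = 0.000658). Of 19 genes of integrins and focal adhesion, 2 were higher and 12 lower. Itgb3, integrin beta-3, changed by -2.79 ± 0.26 (adjusted p = 4.33e-06) and Tns1, tensin, by -2.0 ± 0.18 (adjusted p = 3.34e-06). Fblim1, a filamin-binding LIM protein gene, changed by -1.82 ± 0.16 (adjusted p = 2.05e-06), while Itga3, integrin alpha-3, was higher by 1.68 ± 0.15 (adjusted p = 2.95e-06). Of 14 further LIM, PDZ and stress fibre genes, 1 was higher and 9 lower. Synpo, synaptopodin, changed by -2.60 ± 0.28 (adjusted p = 1.16e-05), Ldb3, a Z-disc protein, by -2.29 ± 0.22 (adjusted p = 5.43e-06) and Pdlim4 by -1.43 ± 0.20 (adjusted p = 0.000123). Flnc, the muscle filamin, was the 1 higher gene at 1.63 ± 0.12 (adjusted p = 5.81e-07). Lower calls outnumbered higher calls in the assembly, adhesion and stress fibre lists, and higher calls outnumbered lower calls in the early growth and YAP lists, as they did over all genes.

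**Figure D4:**
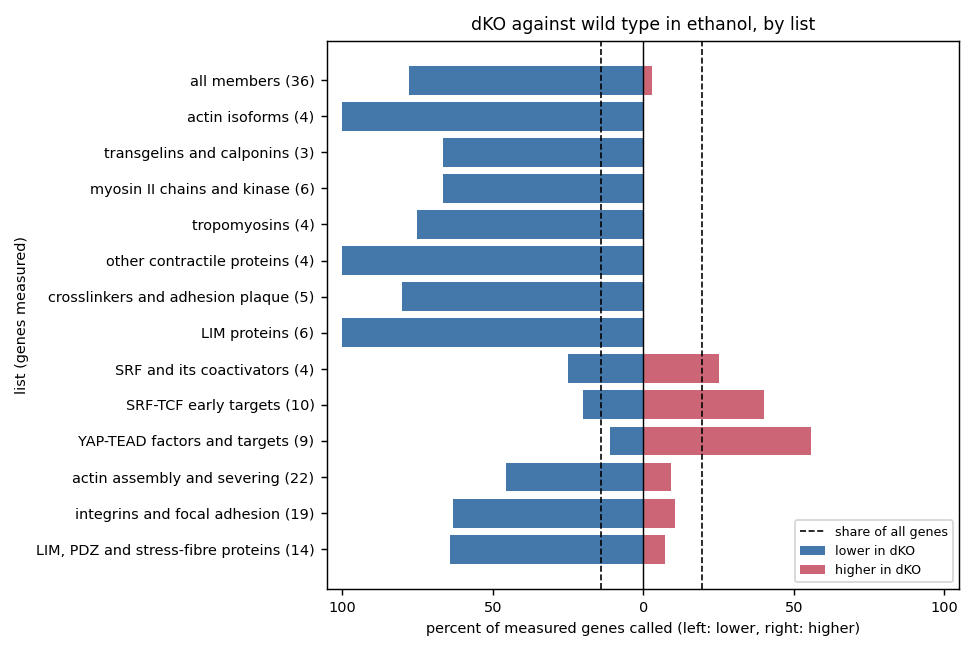
Percent of measured genes called lower (left) or higher (right) in dKO against wild type in ethanol, for the members, their roles and the 5 further lists, with the number measured in brackets; dashed lines are the shares of all genes. Lower calls take 77.8% of the members, and higher calls exceed lower calls for the early growth and YAP lists.

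Under DP the genotype differences of these lists had the same leading genes in several cases. Fos was higher by 1.29 ± 0.20 (adjusted p = 0.000191) and Egr2 changed by -1.62 ± 0.17 (adjusted p = 9.69e-06). Itgb3 changed by -2.90 ± 0.26 (adjusted p = 2.95e-06), Synpo by -2.70 ± 0.28 (adjusted p = 7.87e-06) and Ezr by 1.88 ± 0.11 (adjusted p = 1.26e-07). In response to DP, Bcar1, an adhesion scaffold, rose in wild type by 1.20 ± 0.12 (adjusted p = 2.78e-05) and in dKO by 0.56 ± 0.12 (adjusted p = 0.0327). Ajuba changed in wild type by -0.49 ± 0.10 (adjusted p = 0.0146). The actin assembly genes had 0 of 22 genes called in either genotype by limma, with 1 at an unadjusted p under 0.05 in each. Across the array, DP calls in wild type took 3.05% (higher) and 1.67% (lower), and dKO calls took 1.5%. An unadjusted limma p under 0.05 was reached by 2596 of 17097 for wild type and by 2409 for dKO. At these shares, 0 calls in a list of 22 does not set it apart.

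The search was also set beside the genotype change of genes outside the list. In ethanol 51 of 196 such genes with a perfect CArG box (26.0%) were lower, beside 13.4% of 13377 genes without a box. Under DP the counts were 58 of 196 (29.6%) and 16.0%. Called higher were 16.8% of the genes with a box and 20.4% of those without in ethanol. Under DP 16.3% and 19.4% were called higher. The median change of the 196 genes with a box was -0.09 in ethanol and -0.06 under DP. These shares are descriptions, since genes are not independent replicates. Of the 9 members with a perfect box, 8 were lower in ethanol and 7 under DP, and of the 23 members with a promoter but no perfect box, 17 were lower in each treatment.

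Markers of cell identity differed by list, and the whole fibroblast list moved with the members. For comparison, 14.1% of all genes were called lower in dKO in ethanol and 16.9% under DP. All 10 fibroblast markers, among them Dcn at -3.73 ± 0.29 (adjusted p = 1.04e-06) and Pdgfrb at -2.39 ± 0.24 (adjusted p = 7.59e-06), were lower in dKO in both treatments, with medians of -1.55 and -1.61. The mean log2 level of the fibroblast list was 10.20 to 10.28 on wild-type ethanol arrays and 8.33 to 8.76 on dKO ethanol arrays, and 10.22 to 10.32 and 8.24 to 8.69 under DP. The labelled cell type was thus marked on all arrays, more weakly in dKO. Of 10 skeletal muscle markers 1 was lower in ethanol, with Myod1, Myf5, Myf6 and Tnnt3 at the Tag level in all groups and list means from 3.53 to 3.61 in wild type and 3.37 to 3.42 in dKO. Of 7 cardiac markers 2 were lower, with Nkx2-5, Tnni3, Ryr2 and Myl7 at the Tag level and means from 3.46 to 3.56 and 3.15 to 3.35. Of 4 pericyte markers 2 were lower, led by Rgs5 at -1.53 ± 0.32 (adjusted p = 0.00238), with means from 4.84 to 5.18 and 4.23 to 4.57 and Higd1b at the Tag level.

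Macrophage markers were 3 lower (37.5%, beside 14.1% of all genes) and 1 higher of 8, with Lyz2 at -3.41 ± 0.59 (adjusted p = 0.000576), Cd68 at 1.53 ± 0.29 (adjusted p = 0.00116), means from 4.03 to 4.76 in wild type and 3.88 to 3.97 in dKO, and Ptprc, Aif1 and Itgam at the Tag level. Epithelial markers were 5 lower of 8, with Krt18 at -2.04 ± 0.19 (adjusted p = 3.6e-06) and Krt8 at -1.52 ± 0.21 (adjusted p = 8.99e-05). Their means were 4.80 to 5.07 in wild type and 4.05 to 4.33 in dKO, with Cdh1 at the Tag level. Endothelial markers were 0 of 8 called by limma in ethanol, with 1 at an unadjusted p under 0.05, which 7013 of 17097 genes had. Their means were 3.32 to 3.49 in wild type and 3.22 to 3.38 in dKO, with Pecam1, Cdh5, Tek, Tie1 and Emcn at the Tag level. Under DP 3 of the 8 were lower (37.5%, beside 16.9% of all genes), namely Kdr (-0.59 ± 0.14), Cldn5 (-0.41 ± 0.11) and Tie1 (-0.34 ± 0.11). Of 6 neural markers 1 was lower in ethanol, Tubb3, at -3.51 ± 0.30 (adjusted p = 2.07e-06), from a mean of 7.75 to 4.25. Sox2, Gfap and Olig2 were at the Tag level, and the list means were 4.17 to 4.40 and 3.41 to 3.78. Under DP 4 of 8 macrophage, 3 of 8 epithelial and 2 of 6 neural markers were lower, and 1 macrophage marker was higher. Of 10 skeletal, 7 cardiac and 4 pericyte markers, 0, 1 and 2 were lower under DP, and 1 skeletal marker was higher. The excess of 3′ over 5′ signal for beta-actin, a measure of RNA quality, also moved with genotype, from 0.23 to 0.25 on wild-type ethanol arrays and from 0.40 to 0.45 on dKO ethanol arrays. It was also higher under DP, at 0.28 to 0.38 in wild type and 0.48 to 0.60 in dKO, without overlap in either genotype. The same measure for Gapdh was -0.03 to 0.15 in wild type and 0.19 to 0.21 in dKO in ethanol. Under DP the Gapdh ranges of the genotypes overlapped, at 0.04 to 0.17 and 0.10 to 0.19, and the dKO range was not higher than in ethanol. The part of these markers, of RNA quality and of sex in the members' changes was not tested.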

How the data were processed

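The submitters' processing notes name RMA and Affymetrix Expression Console 1.1 for the deposited log2 values, which the authors gave per probe set. This method subtracts background, equalizes the arrays and summarises probes, which compresses low signals. RNA (100 ng per array) was labelled with a 3′ IVT Express kit, per the labels' protocols. Of 45141 probe sets, 28898 listed 1 gene symbol, and the probe set with the highest mean stood for each of 17097 genes. The precision is limited by the number of arrays. Tests used limma 3.58.1 (R 4.3.3, lmFit and eBayes, 1 mean per group over 12 arrays, 5 contrasts, Benjamini-Hochberg over all genes). In simulated DP contrasts of wild type, 80.6% of genes changed by 1 log2 unit and 35.8% of those changed by 0.5 were recovered. Every measured member is accounted for, with values by array for members called in any contrast. Of each further list up to 4 called genes of largest change were chosen, and under DP only part of them is named; 1 other list is not reported here. The members and lists were chosen with earlier results of these data known. The labels pair ethanol and DP arrays of a line. Deviations from group means correlated at 0.42, 0.06 and 0.33 in wild-type lines 3, 4 and 5 and 0.04, 0.32 and 0.36 in dKO lines 1, 5 and 6, over 8917 genes. Alternatives changed the line block, spread model, array weights, scaling, filter, probe set, arrays and fold minimum.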

Additional observations from a re-analysis of the deposited data

Results flagged for a closer look

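The DP effect on Fos, a gene that SRF drives with ternary complex factors, differed between genotypes by the test of that difference, at -1.80 ± 0.28 (dKO minus wild type, adjusted p = 0.0082 by limma). Fos rose from 6.14 to 8.11 in wild type and was 9.23 in dKO ethanol and 9.40 in dKO DP, as means of 3 arrays.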

How the results depend on the processing

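Across the 22 settings that changed the line block, spread model, array weights, scaling, filter, probe set rule or arrays, no call on a member changed direction. Of 59 calls, 52 held in every setting in which the gene was tested. For Actc1, in ethanol and under DP, this was 21 of the 22 settings. A fold minimum of 1.5 removed 13 of the 59, and 44 held in all settings that tested the gene and passed it. Members called in wild type after DP numbered 2, 1 with a fold minimum of 1.5 and 3 with every probe set; leaving out each array in turn gave 1 to 2. In dKO after DP the count of 0 became 2 with array weights, where 8.64% of all genes were called. It became 1 without the dimmest 40% of genes, where 2.96% of genes were called, and 0 to 1 when each array was left out. For genotype the counts of 29 in ethanol and 28 under DP ranged from 29 to 29 and from 26 to 29 when each array was left out, and otherwise from 22 to 31 and from 23 to 30. The lowest counts came with the fold minimum. The difference of DP effects gave 0 calls in every setting. With MEF line as a replicate block the counts were 2, 0, 29, 28 and 0, and the block changed no call on a member. The members' median change ranged from -1.04 to -0.74 in ethanol and from -1.0 to -0.75 under DP. For the DP effect in dKO it ranged from -0.21 to 0.05 and for the difference of DP effects from -0.12 to 0.06, so both medians changed sign in some settings. Calls lost in some setting other than the fold minimum were those on Synpo2 after DP, on Cald1, Des, Mkl2 and Srf in ethanol, and on Cald1 and Mkl2 under DP; the cause was not tested. Signal near the Tag level limits Actc1 and Myocd.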
